A study of Mus musculus with 11 samples.

Results

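The genes described here are those of the cytosolic ribosomal proteins, whose symbols begin with Rpl for the large 60S subunit and Rps for the small 40S subunit. They were measured by RNA sequencing in gonadal white adipose tissue (WAT), 1 library per mouse, from 11 male C57Bl6/J mice. All 11 mice ate a high fat diet (HFD, 60% fat) for 20 weeks. The 5 HFD control mice received vehicle, and the 6 IMC-treated mice received iodomethylcholine at 0.06% (w/w) in the same diet, an inhibitor of the bacterial choline trimethylamine lyase CutC. No age is stated for the sequenced mice themselves, although a starting age is given for mice of the same sex, diet, dose and duration in another experiment of the study. Mice are numbered within a group only to name them. Members were chosen by symbol among the 12787 genes of the expression table, to which the authors' filter on low counts had been applied. Each gene reached 1 CPM (reads scaled for library size and upper quartile) in at least 1 mouse. Kinases of the Rps6k series (8 symbols) and 1 symbol with a pseudogene suffix were left out, which left 67 genes, 40 Rpl and 27 Rps. The family was proposed with the results of this same comparison known, so every count and p-value below describes these genes and is no independent evidence of a direction.

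A ribosome is built from ribosomal RNA and a fixed set of proteins for each subunit, the 60S subunit, which forms peptide bonds, and the 40S subunit, which reads the mRNA. The mRNAs of these proteins share a pyrimidine-rich start, the 5′ terminal oligopyrimidine tract, through which mTORC1 and the binding protein Larp1 set their translation and stability together. Ribosomal protein genes have also left many processed pseudogenes in mammalian genomes, so short reads from them often fit several places. Of 80 known protein components of the cytosolic ribosome, 62 were in the table, and the other 18 are not analysed here.

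The ribosomal protein mRNAs as a group were lower in the WAT of IMC-treated mice. Their CPM, read counts scaled for library size and upper quartile, summed to 7107, 6423, 6912, 7089 and 6730 in the 5 HFD control mice. In the 6 IMC-treated mice the sum ran from 5239 to 5820 with a median of 5687, so no IMC-treated mouse reached the lowest HFD control mouse. HFD control mice averaged 6852 ± 285 CPM (SD, n = 5) and IMC-treated mice 5627 ± 220 CPM (SD, n = 6), a difference of -17.9%. Both subunits contributed: the Rpl sum differed by -17.2% and the Rps sum by -18.7%. In a bulk tissue, fewer cells that hold many ribosomes and less of these mRNAs per cell cannot be told apart. The listed members took 0.656% to 0.723% of the counted CPM in HFD control mice and 0.521% to 0.577% in IMC-treated mice. This was between 126546 and 168923 reads per mouse. The mean of this share, which does not depend on the scaling of a library, differed by -19.7%. STAR's gene counts include uniquely mapped reads only, so the share does not measure how much of the tissue's mRNA encodes ribosomal proteins. In HFD control mice, the 14 members with under 50% of their 50-base stretches in another annotated gene supplied 3277 to 3615 CPM. In IMC-treated mice they supplied 2725 to 2994 CPM.

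**Figure D1:**
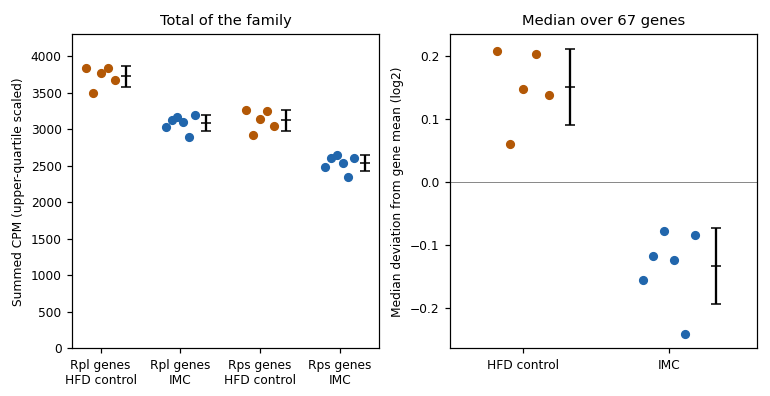
The left panel plots the summed CPM of the 40 Rpl and the 27 Rps genes for each mouse, and the right panel plots for each mouse the median over 67 genes of the deviation from the gene's mean over all mice (log2). Points are mice and bars are means ± SD (n = 5 HFD control, n = 6 IMC); in both panels all IMC-treated mice lie below all HFD control mice.

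Gene by gene, 52 of the 67 members were lower in IMC-treated mice by limma at an adjusted p below 0.05, 1 was higher and 14 did not pass. Over all 12787 genes, 21% were lower and 20% were higher by the same rule. The median log2 fold change of the members (IMC-treated minus HFD control) was -0.31, with the middle 50% of them between -0.38 and -0.21, against a median of -0.03 over all genes. Fitted changes were negative for 66 of the 67, and for 63 of them in every alternative fit, Rpl10, Rpl21 and Rps7 being the others. Among the 40 Rpl genes 32 were lower and none was higher, and among the 27 Rps genes 20 were lower and 1 was higher. The 27 Rps genes include Rps19bp1, which encodes no ribosomal protein. Without reference to a variance model, all IMC-treated mice lay below all HFD control mice for 36 of the 67 members, against 10.5% of all genes.

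**Figure D2:**
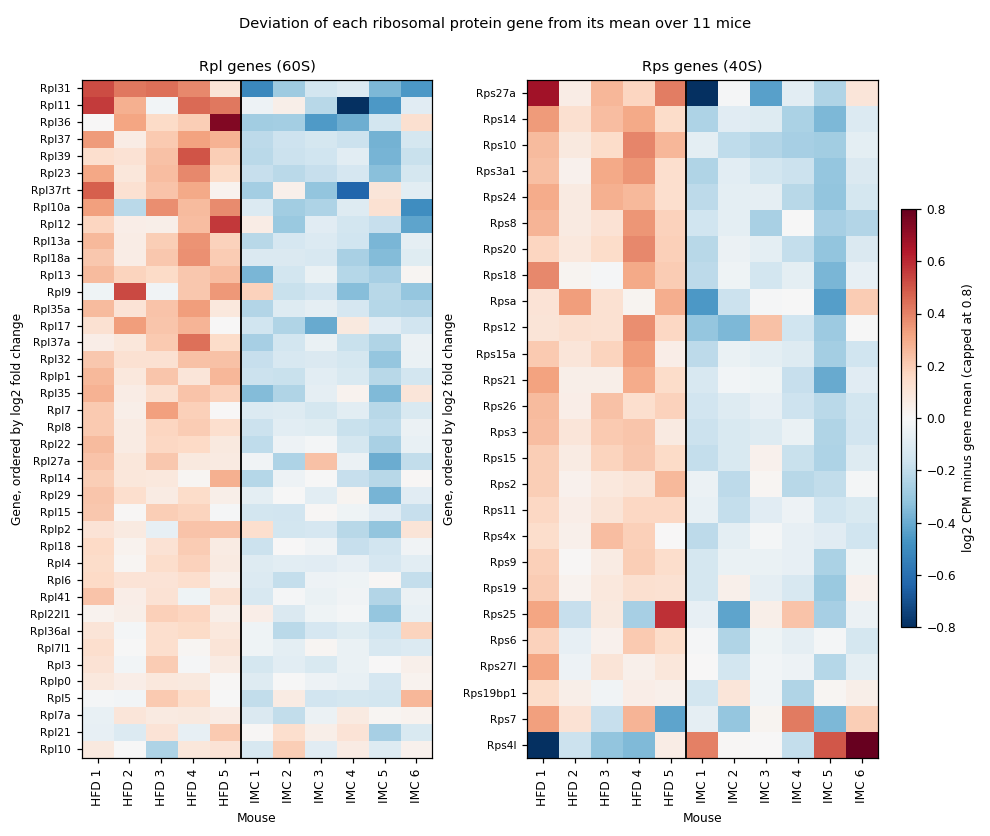
Each row is 1 of 66 of the 67 ribosomal protein genes (Rpl left, Rps right), ordered by log2 fold change, and each column a mouse, with colour showing log2 CPM minus the gene's mean over 11 mice (capped at 0.8 either way). The HFD control columns are mostly red and the IMC-treated columns mostly blue, except for the bottom rows, where Rps4l has the opposite colours.

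**Figure D3:**
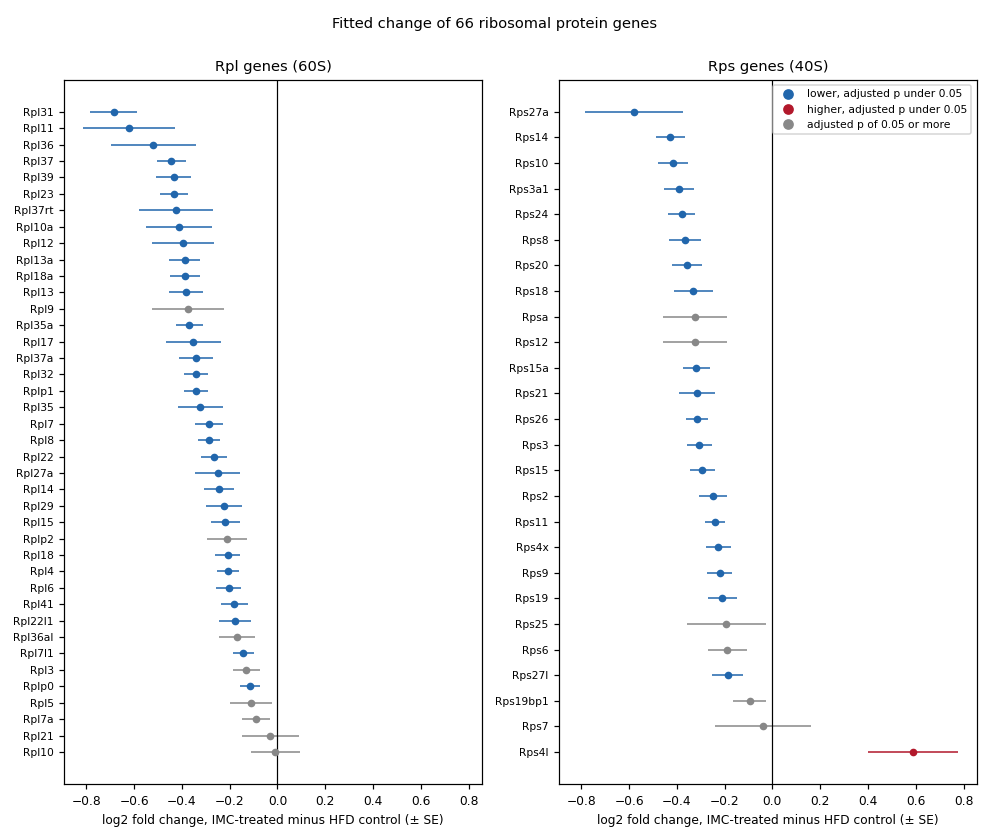
Points give the log2 fold change (IMC-treated minus HFD control) of 66 of the 67 genes with its SE from limma, blue for lower, red for higher and grey for genes that did not pass an adjusted p of 0.05. All points but that of Rps4l lie left of 0, between -0.69 for Rpl31 and -0.01 for Rpl10.

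The members moved together between mice of the same group as well. Among the 37 members with a mean of at least 5 log2 CPM, the median pairwise correlation of deviations from the group means was 0.54 over the 11 mice, against 0.00 for all pairs among 6089 genes at that level. All pairs share the same libraries and scaling, so these values are a description. HFD control mouse 2 was above its group mean for only 9 of 67 members and HFD control mice 1 and 4 for 52 each. Among IMC-treated mice, mouse 5 was above its group mean for 13 members, while mouse 3 was above for 52 and mouse 6 for 50.

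Cell type markers moved between the groups too. Adipocyte markers were higher in IMC-treated mice for 9 of 10 listed genes, with a summed level of 18836 to 23365 CPM in HFD control and 28781 to 33575 CPM in IMC-treated mice. Macrophage markers were lower for 9 of 10, with summed levels of 12503 to 16630 CPM and 6644 to 10427 CPM. All 4 mast cell markers were lower, with summed levels of 331 to 745 CPM and 111 to 209 CPM. Fibroblast and progenitor markers were lower for 3 of 5, with summed levels of 3761 to 4491 CPM and 2821 to 3456 CPM. Endothelial markers (1 of 5 higher, 377 to 527 against 432 to 607 CPM) and mesothelial markers (1 of 3 listed lower, 152 to 209 against 70.5 to 172 CPM) overlapped between the groups. None of the 5 T cell, 4 B cell or 4 epididymis markers was in the table, and of 5 muscle markers only Acta1 was, which was higher in IMC-treated mice by 1.23 ± 0.15 (adjusted p 6.1e-05), at 3.56 to 4.08 log2 CPM in controls and 4.71 to 5.62 in treated mice without overlap. Mouse by mouse, the macrophage sum in HFD control mice 1 to 5 was 16630, 12836, 14782, 12945 and 12503 CPM, beside a median deviation of the family of 0.21, 0.06, 0.15, 0.20 and 0.14 log2. In IMC-treated mice 1 to 6 it was 8110, 7662, 10021, 10427, 9862 and 6644 CPM, beside a family median of -0.16, -0.12, -0.08, -0.12, -0.24 and -0.08 log2. The part of these cell types in the ribosomal protein result was not tested.

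Among the 60S proteins, Rpl31, which lies near the exit of the peptide tunnel, had the most negative fitted change. Its log2 CPM was 3.63, 3.53, 3.55, 3.49 and 3.21 in HFD control mice and ran from 2.59 to 3.0 with a median of 2.79 in IMC-treated mice. The groups did not overlap, and the fitted change was -0.69 ± 0.10 (SE), adjusted p 0.00022 by limma, a fall of 37.9%. Every 50-base stretch of the Rpl31 coding sequence also occurs in another annotated gene, and Rpl31 overlaps Tbc1d8 on the opposite strand, whose change was -0.09 ± 0.06 (adjusted p 0.26).

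Rpl37, a small zinc-binding protein of the 60S subunit, stood at 6.31, 6.03, 6.18, 6.29 and 6.25 log2 CPM in HFD control mice. IMC-treated mice ranged from 5.59 to 5.83 with a median of 5.80. No value overlapped, and the change was -0.44 ± 0.06, adjusted p 0.00015. Rpl23, at the subunit interface, showed 6.06, 5.84, 5.99, 6.13 and 5.90 log2 CPM in the controls. Treated mice lay between 5.41 and 5.61, median 5.56, and its change of -0.43 ± 0.06 had the smallest adjusted p of the family, 0.00014. Rpl39, which lines the exit tunnel, was at 5.24, 5.22, 5.34, 5.61 and 5.31 in HFD control mice and at 4.74 to 5.03, median 4.93, in IMC-treated mice (-0.43 ± 0.07, adjusted p 0.00060). Every treated mouse lay below every control mouse for these 3 genes.

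Rpl32 and Rpl35a, both of the 60S subunit, changed by -0.34 ± 0.05 (adjusted p 0.00020) and -0.37 ± 0.06 (adjusted p 0.00027), again without overlap. The 60S genes with the most CPM in the libraries were Rpl4 and Rpl8. Rpl4 read 9.43, 9.30, 9.43, 9.47 and 9.36 log2 CPM in HFD control mice and 9.14 to 9.22, median 9.19, in IMC-treated mice, a change of -0.21 ± 0.05 (adjusted p 0.0033). Rpl8 changed by -0.29 ± 0.05 (adjusted p 0.00052). Neither gene overlapped between the groups.

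The acidic stalk, the P0, P1 and P2 proteins that recruit elongation factors to the 60S subunit, did not give 1 common value. Rplp1 was at 8.78, 8.61, 8.74, 8.62 and 8.78 log2 CPM in HFD control mice and at 8.30 to 8.44, median 8.36, in IMC-treated mice (-0.34 ± 0.05, adjusted p 0.00020). Rplp0, the scaffold of the stalk and a common reference gene in qPCR under the name 36B4, was at 8.31, 8.27, 8.30, 8.30 and 8.23 in controls and at 8.08 to 8.25, median 8.17, in treated mice. Its groups overlapped, its change was -0.11 ± 0.04 (adjusted p 0.046), and the call was lost under median of ratios scaling (adjusted p 0.058), both other limma variance settings, voom and 9 of the 11 fits without 1 mouse, where adjusted p reached 0.098. Rplp2 changed by -0.21 ± 0.08 (adjusted p 0.062), with 6.38, 6.34, 6.21, 6.50 and 6.50 in controls and 5.96 to 6.41 in treated mice. Differences between the 3 changes were not tested. Other genes that laboratories use as qPCR references, chosen here after their values were seen, were Rpl13a (-0.39 ± 0.06, adjusted p 0.00049) and Rps18 (-0.33 ± 0.08, adjusted p 0.0066).

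Rpl5 and Rpl11 bind the 5S ribosomal RNA and, when ribosome assembly is disturbed, the p53 regulator Mdm2. Rpl11 was at 1.26, 0.99, 0.68, 1.16 and 1.13 log2 CPM in HFD control mice and at -0.22 to 0.75, median 0.55, in IMC-treated mice. Its change was -0.62 ± 0.19 (adjusted p 0.020) on only 21 to 53 reads per mouse, 1 treated mouse was above a control, and without HFD control mouse 1 the adjusted p was 0.053. Rpl5 changed by -0.11 ± 0.09 (adjusted p 0.34), and its groups overlapped over most of their range, 3.96 to 4.19 against 3.79 to 4.25. All 50-base stretches of both coding sequences occur in other annotated genes, and Rpl5 overlaps Fam69a on the opposite strand, which was higher in IMC-treated mice (0.53 ± 0.07, adjusted p 0.00011).

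Among the 40S proteins, Rps14, on the platform of the subunit, had the most negative change with a small error. It read 8.29, 8.07, 8.19, 8.25 and 8.09 log2 CPM in HFD control mice and 7.58 to 7.86, median 7.76, in IMC-treated mice (-0.43 ± 0.06, adjusted p 0.00020), without overlap. It overlaps Ndst1 on the opposite strand, which was higher (0.29 ± 0.07, adjusted p 0.0065). Rps10, a protein of the 40S head, changed by -0.42 ± 0.06 (adjusted p 0.00028) and Rps26, which contacts the mRNA exit channel, by -0.31 ± 0.05 (adjusted p 0.00022), neither with overlap.

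Of the 40S genes Rps3 had the most CPM, and only 8.1% of the 50-base stretches of its coding sequence occur in another annotated gene. Rps3, at the mRNA entry channel and also an endonuclease in DNA repair, changed by -0.31 ± 0.05 (adjusted p 0.00062). It was at 9.28, 9.13, 9.24, 9.26 and 9.11 in controls and at 8.80 to 8.99, median 8.90, in treated mice.

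At the low end of the table, Rps27a, which is made as a fusion with ubiquitin, was at 0.89, 0.28, 0.48, 0.39 and 0.63 log2 CPM in controls and at -0.69 to 0.32, median 0.05, in treated mice. Its change of -0.58 ± 0.20 (adjusted p 0.037) rests on 14 to 41 reads per mouse, and the call was lost in 7 of the 11 fits without 1 mouse, where adjusted p reached 0.099. Rpl36 (-0.52 ± 0.18, adjusted p 0.032) lost its call in 6 of the 11, with adjusted p up to 0.079. Rps7 changed by -0.04 ± 0.20 (adjusted p 0.90) and Rps25 by -0.19 ± 0.16 (adjusted p 0.37), both among the 5 members with the largest SD within groups. Rpl9 changed by -0.38 ± 0.15 (adjusted p 0.063). Only Rpl11, Rpl36, Rps27a and Rps7 fell under 1 CPM, 0 on the log2 scale, in at least 1 mouse, so these 4 lie just inside the table. Each had at least 2 IMC-treated mice and 4 HFD control mice at or above it, so none was in the table through the control group alone. With 1 CPM added before taking logs, which damps low genes, the count of lower members was again 52.

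The 14 members that did not pass the test were Rpl3, Rpl5, Rpl7a, Rpl9, Rpl10, Rpl21, Rpl36al, Rplp2, Rps6, Rps7, Rps12, Rps25, Rpsa and Rps19bp1. Of these, 12 have at least 90% of their 50-base stretches in another annotated gene, and 7 had a mean under 2.5 log2 CPM. Rps6, the classical phosphorylation target of S6 kinase, changed by -0.19 ± 0.08 (adjusted p 0.078). Rpl3, whose call also failed (-0.13 ± 0.06, adjusted p 0.076), overlaps Syngr1 on the opposite strand, which fell by 0.78 ± 0.08 on the log2 scale (adjusted p 3.6e-05). The library kit was directional, but whether strand was used in counting is not given in the sources used here, so reads of overlapping genes may not be separable. Altogether 23 members overlap another gene. Of them 18 were lower, and of the 44 others 34 were lower.

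Measured levels were lower in genes that share more of their coding sequence. By GENCODE M21 (GRCm38, the same build as mm10), 65 of the 67 members share at least 1 stretch of 50 bases with another annotated gene, all 65 with at least 1 pseudogene, and the median member shares with 9 other genes (Rpl7a with 123). In 17 members every 50-base stretch is shared. Per kilobase of coding length, the mean level was 725 CPM for Rps3 (8.1% shared) and 497 for Rpl4 (20.3%). It was 2.02 for Rps7 (95.3%), 2.58 for Rps27a (100%) and 3.17 for Rpl11 (100%). Rplp1 (60.4%) had the highest level per kilobase, 1082, and Rpl13a (97.5%) and Rpl41 (100%), at 575 and 629, were high at almost complete sharing. The coding sequence of Rpl41 is only 75 bases long, against 718 bases in all its exons, which raises its value per kilobase. The gene that shares most stretches with Rpl13a, Gm45713, overlaps it on the same strand. Across the 67 genes Spearman's rho between the shared percentage and log2 CPM per kilobase was -0.73, and genes are not independent replicates. STAR's gene counts include uniquely mapped reads only, so the levels of different members cannot be compared as mRNA abundance, and a low level here is no evidence that a protein is rare in the ribosome.

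Fitted changes were negative at every degree of sharing, Rps4l excepted. Members with under 50% shared had a median level of 383 CPM per kilobase and a median log2 fold change of -0.25, with 12 of 14 lower and 1 higher. Those between 50% and 90% stood at 219 CPM per kilobase and -0.34, with 20 of 21 lower. Those with at least 90% shared stood at 20.8 CPM per kilobase and -0.29, with 20 of 32 lower, and their median SE was 0.09 against 0.05 in the first group. Across the 67 genes rho between the shared percentage and the log2 fold change was -0.15.

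**Figure D4:**
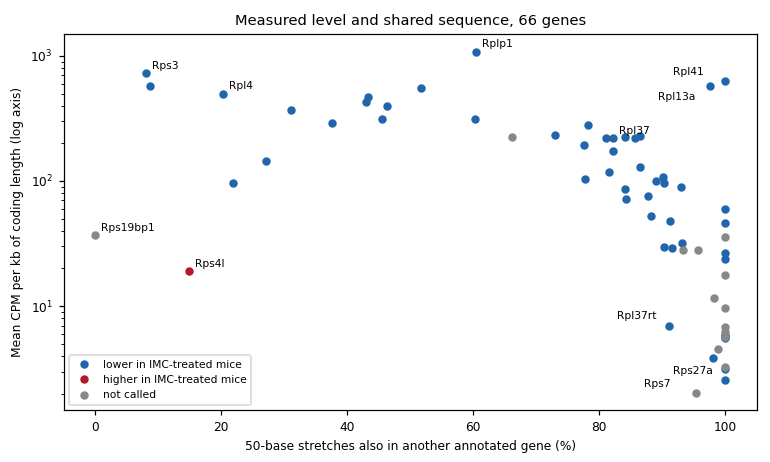
Each point is 1 of 66 of the 67 genes, placed by the share of its 50-base coding stretches found in another annotated gene (%) and by its mean CPM per kilobase of coding length (log axis), and coloured by the limma call. For Rps4l and Rpl37rt the whole transcript was used. Genes with little shared sequence, such as Rps3 at 725 CPM per kilobase, sit high, and most genes at or near 100% sit low, with Rpl13a and Rpl41 as exceptions.

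An example of near-complete sharing is Rpl37 with Rpl37rt, a copy that GENCODE M21 annotates as a transcribed processed pseudogene. Rpl37 lies at chr15:5116645-5119140 on the plus strand and Rpl37rt at chr5:115102923-115110268 on the minus strand. Over 291 aligned bases, the Rpl37 coding sequence and the Rpl37rt transcript differ at 1. The sequences below are bases 190 to 249 of the Rpl37 coding sequence and of the Rpl37rt transcript, 5′ to 3′, from the GENCODE M21 transcripts, shown because they hold that single difference, in capitals.
Rpl37: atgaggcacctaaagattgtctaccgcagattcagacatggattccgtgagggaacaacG
Rpl37rt: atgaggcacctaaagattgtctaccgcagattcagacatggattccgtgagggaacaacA
Within the aligned bases that base alone tells the 2 genes apart. Rpl37rt was at 1.49, 1.13, 1.24, 1.31 and 1.04 log2 CPM in HFD control mice and at 0.38 to 1.11, median 0.83, in IMC-treated mice. Its change of -0.42 ± 0.16 (adjusted p 0.043) was on 32 to 62 reads per mouse against 1191 to 1866 for Rpl37, and the call was lost in 8 of the 11 fits without 1 mouse, where adjusted p reached 0.11. Whether these reads come from the copy or from Rpl37 was not tested.

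The only member higher in IMC-treated mice was Rps4l, a paralog of Rps4x that GENCODE M21 annotates as a transcribed processed pseudogene. It lies at chr6:148354656-148355598 on the plus strand, overlapping Tmtc1 on the opposite strand. Rps4x lies at chrX:102184941-102189394 on the minus strand, and the 2 sequences are identical at 626 of 783 aligned bases (79.9%). The following 60 bases are bases 475 to 534 of the Rps4x coding sequence and 529 to 588 of the Rps4l transcript, chosen as the stretch with the most differences, 20, which are in capitals.
Rps4x: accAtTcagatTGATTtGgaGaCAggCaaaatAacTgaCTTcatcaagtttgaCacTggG
Rps4l: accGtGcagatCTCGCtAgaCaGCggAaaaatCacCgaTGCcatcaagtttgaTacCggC
With this divergence only 14.9% of the 50-base stretches of Rps4l occur in another annotated gene, and that gene is a pseudogene, not Rps4x. Rps4l was at 3.27, 3.92, 3.77, 3.73 and 4.15 log2 CPM in HFD control mice and at 3.90 to 4.96, median 4.30, in IMC-treated mice. The groups overlapped, and the SD was 0.32 and 0.40, among the 5 largest of the family. Its change was 0.59 ± 0.19 (adjusted p 0.024), and without HFD control mouse 1 it was 0.46 (adjusted p 0.066). Tmtc1 changed by -0.06 ± 0.10 (adjusted p 0.69). Rps4x was at 6.55, 6.45, 6.66, 6.60 and 6.41 in controls and at 6.20 to 6.40, median 6.33, in treated mice (-0.23 ± 0.05, adjusted p 0.0046), without overlap.

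**Figure D5:**
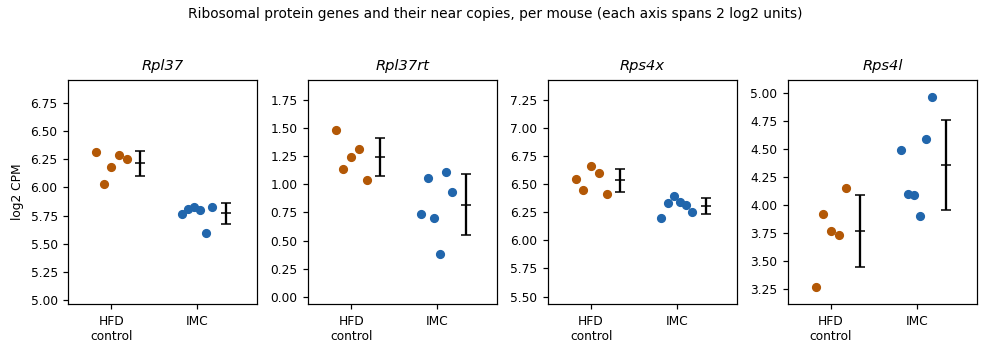
The 4 panels plot log2 CPM of Rpl37, Rpl37rt, Rps4x and Rps4l for each mouse, with means ± SD (n = 5 HFD control, n = 6 IMC), each axis spanning 2 log2 units. Rpl37 and Rps4x do not overlap between the groups, Rpl37rt overlaps, and Rps4l runs the other way with the widest spread.

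The other 4 paralogs had fitted changes between -0.19 and -0.14. Rpl22l1, a paralog of Rpl22 known for antagonising it in RNA binding, changed by -0.18 ± 0.07 (adjusted p 0.048), a call lost under median of ratios scaling (0.055), eBayes without trend (0.052) and 9 of the 11 fits without 1 mouse (up to 0.12), while Rpl22 changed by -0.26 ± 0.05 (adjusted p 0.0021). Rpl7l1, found on pre-ribosomes, changed by -0.14 ± 0.04 (adjusted p 0.019; 0.051 and 0.055 without HFD control mouse 1 or 3) and Rpl7 by -0.29 ± 0.06 (adjusted p 0.0016). Rps27l, a p53 target, changed by -0.19 ± 0.07 (adjusted p 0.035), and its call was lost in 6 of the 11 fits without 1 mouse, with adjusted p up to 0.091. Rpl36al changed by -0.17 ± 0.08 (adjusted p 0.096). Differences between paralog and parent were not tested. Rps19bp1, which has a matching symbol but encodes a nucleolar regulator of Sirt1 and no ribosomal protein, changed by -0.09 ± 0.07 (adjusted p 0.30). Leaving out it, the paralogs and Rpl37rt, 48 of 60 members were lower, none was higher and all 60 fitted changes were negative, with a median of -0.32.

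Both listed ribosomal components whose symbols the rule does not reach were lower. Gnb2l1, the older symbol of Rack1, a scaffold on the 40S head, changed by -0.27 ± 0.05 (adjusted p 0.0012), with controls at 9.54 ± 0.08 (SD, n = 5) and treated mice at 9.27 ± 0.04 log2 CPM (SD, n = 6). Fau, which encodes Rps30 fused to a ubiquitin-like protein, changed by -0.55 ± 0.21 (adjusted p 0.049). Its mean level was 0.23 log2 CPM in controls and -0.32 in treated mice. All controls were above 0 (0.08 to 0.46), but among treated mice only mouse 2 was (0.21), so Fau reached 1 CPM mainly in controls. Other mRNAs known to carry a terminal oligopyrimidine tract were lower in 13 of 21 cases and higher in 1, with a median of -0.18. The elongation factor subunit Eef1b2 changed by -0.22 ± 0.05 (adjusted p 0.0034), the nucleolar chaperone Npm1 by -0.32 ± 0.06 (adjusted p 0.0012), the snoRNA host Gas5 by -0.29 ± 0.06 (adjusted p 0.0015) and the cytoskeletal gene Vim by -0.34 ± 0.10 (adjusted p 0.014). Nap1l1, a histone chaperone, was the 1 that was higher (0.24 ± 0.05, adjusted p 0.0019), and Eef1a1 (-0.14 ± 0.06, adjusted p 0.058) and Eef2 (-0.09 ± 0.06, adjusted p 0.25) did not pass.

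Genes that regulate these mRNAs were more often higher than lower. Of 15 listed, 6 were higher, 1 was lower and 8 did not pass, against 20% higher and 21% lower of all genes. The lower gene was Tial1 (-0.15 ± 0.04, adjusted p 0.0081). The list holds kinases and repressors alike, so the count gives no direction of regulation. The kinase Rps6kb1 (0.35 ± 0.04, adjusted p 7.1e-05) and the mTOR kinase gene Mtor (0.39 ± 0.06, adjusted p 0.00040) had the smallest adjusted p. Larp1 was higher by 0.20 ± 0.04 (adjusted p 0.0013), and Eif4ebp1, a repressor of cap-dependent translation, by 0.47 ± 0.09 (adjusted p 0.00095). These are mRNA levels, and mTORC1 activity was not measured in these libraries. Of 51 listed ribosome biogenesis genes 8 were lower and 6 higher, with a median of -0.06. Nol6, a factor of the early 40S precursor, was higher by 0.42 ± 0.05 (adjusted p 6.1e-05), and Rrn3, the RNA polymerase I initiation factor, by 0.29 ± 0.05 (adjusted p 0.00047), while Myc, which drives ribosomal gene transcription, fell by 0.44 ± 0.07 on the log2 scale (adjusted p 0.00061). Of 12 chaperones and loading factors of ribosomal proteins 3 were higher and 1 lower, led by Nap1l1 and Heatr3, which escorts Rpl5 (0.18 ± 0.05, adjusted p 0.0059). The lower gene was Pdcd2l (-0.27 ± 0.08, adjusted p 0.016). Nap1l1 and the higher gene Ltv1 were also counted above, among the oligopyrimidine mRNAs and the biogenesis genes.

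For comparison, the 76 listed genes of the mitochondrial ribosome had 7 lower and 11 higher, with a median of 0.03. The 60 genes with symbols of initiation and elongation factors had 13 lower and 7 higher, with a median of -0.05. Not all 60 encode such factors: the higher ones include the repressor gene Eif4ebp1 and Eif4ebp2. Those families hold no member of the 67, and their difference from the cytosolic family was not tested. The factor set shares genes with the lists above, such as Eef1b2 with the oligopyrimidine mRNAs and Eif4ebp1 with the regulators.

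The members share features that the symbol rule did not use. They lie on 18 chromosomes, and 26 of them host 52 snoRNA genes. Hosts were lower in 18 of 26 cases (median -0.32) and the others in 34 of 41 (median -0.29). RefSeq start sites (GRCm38.p6, 250 bases before to 50 after the start) were found for 50 members, and 17 had no entry. A tract of at least 7 C or T bases beginning with C and reaching within 20 bases of the start was present at 32 of their 59 start sites (54.2%), against 23.8% of all 32851 starts in the table. The windows below run from 10 bases before the start to 20 bases of transcript on the coding strand, with the tract in capitals. They are shown as examples of the letters counted, which need not begin at the first transcribed base as a terminal oligopyrimidine tract does, and they belong to the called members of smallest adjusted p whose tract lies wholly inside the window, chr10:128626487-128626516 (Rps26, minus strand), chr16:33056472-33056501 (Rpl35a, plus), chr17:27635225-27635254 (Rps10, minus), chr14:24490668-24490697 (Rps24, plus) and chr7:45128726-45128755 (Rpl13a, minus), with Rps6 (chr4:86857348-86857377, minus) as a member that did not pass.
Rps26: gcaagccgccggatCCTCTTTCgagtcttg
Rpl35a: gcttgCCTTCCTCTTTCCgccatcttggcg
Rps10: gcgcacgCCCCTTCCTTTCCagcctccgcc
Rps24: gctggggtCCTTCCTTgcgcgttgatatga
Rpl13a: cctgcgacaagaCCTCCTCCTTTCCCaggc
Rps6: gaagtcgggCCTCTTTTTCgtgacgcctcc
Members with a tract were lower in 24 of 30 cases (median -0.30), and members with a start but no tract in 14 of 20 (median -0.26). The Ets-type motif CCGGAAG, searched on both strands over the whole window and able to overlap a tract in its reverse form CTTCCGG, was at 22 of 59 member starts (37.3%) and at 8.86% of all starts. Members with it were lower in 16 of 21 cases and those without it in 22 of 29. A match describes letters in a window and is not evidence of a binding site.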

How the data were processed

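The authors used Trim Galore and FastQC on paired reads, then STAR with UCSC annotation of mm10 and its gene counting, removed genes below 1 CPM in all samples, scaled by upper quartile and exported log2 CPM with edgeR. The deposited table also holds the authors' own log2 fold change, mean log2 CPM, likelihood ratio score, p-value and FDR (a q-value), which were not used. It holds more genes than the stated filter would leave by the authors' description, a difference not resolved here. Groups came from the treatment labels, with 5 and 6 mice. limma 3.58.1 in R 4.3.3 (lmFit, eBayes with trend) was fitted to the deposited log2 CPM of all 12787 genes with Benjamini-Hochberg adjustment and a threshold of 0.05, and no further filter. Whole reads were recovered from the steps of the values (100% whole within 0.01), giving 22320022 to 25155366 reads on listed genes per mouse, for depth and the voom alternative only. Reads are not independent molecules. Mice within a group are separate animals, and limma tested the group difference against the spread between them. The paper describes group housing, but cage is not in the sample labels, so a shared cage could not be accounted for. Shared stretches were counted as 50-base words of coding sequence found in other GENCODE M21 transcripts on either strand. For Rps4l and Rpl37rt, which are annotated as pseudogenes, the whole transcript stood in for the coding sequence and its length. The fits were also run on simulated data in which genes varied independently and few were changed. That check does not bear on counts over members that move together.

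The members and lists were chosen with earlier results of these data known. Named genes were the 10 members with the largest absolute change, the 10 with the smallest adjusted p, the 5 highest, 5 lowest and 5 most variable within groups, the stalk, Rpl5, Rpl11, paralogs with their parents and Rps19bp1. From each other list counts are given with the 2 genes of smallest adjusted p, and further genes named from the lists, among non-passing members and as overlapping neighbours were chosen after their values were seen. Alternatives were other scalings, a pseudocount of 1 CPM, a filter at a mean of 1 log2 CPM, other variance settings, leaving out each mouse and, chosen after seeing the data, voom on recovered reads. The values of 1 of the 67 members are not reported here, and the plots by gene leave it out, while the counts and sums hold it.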

Additional observations from a re-analysis of the deposited data

Results flagged for a closer look

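Over 68 sets of values of 1 gene or the family sum in 1 group, 2 held a mouse whose gap to the nearest other mouse was large against the range of its group, and chance gives about 1 in 20 such sets. Rpl37 in IMC-treated mouse 5 was at 5.59 log2 CPM, below the other 5 treated mice at 5.76 to 5.83. The same mouse had the lowest summed level of the family. Without it the change of Rpl37 was -0.41 (limma adjusted p 0.00027). That was the smallest in size among the fits without 1 mouse, which ran from -0.49 to -0.41. Rpl9 in IMC-treated mouse 1 was at 1.07 log2 CPM, above the other 5 at 0.55 to 0.74. Without that mouse Rpl9 changed by -0.45 with an adjusted p of 0.033, past the threshold it missed with all mice.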

How the results depend on the processing

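The count of lower members was 52 and ran from 49 to 59 under the scalings, pseudocount, filter, variance settings and voom, and from 41 to 49 without 1 mouse. The median log2 change ran from -0.34 to -0.27 under those alternatives and from -0.32 to -0.27 without 1 mouse. The difference in the family's share of CPM was -0.136 percentage points, and from -0.146 to -0.129 without 1 mouse. Members without overlap numbered 36. They numbered 35 under median of ratios scaling, 44 under total CPM scaling and 45 under scaling to genes that are not members. Leaving out a mouse can only keep or raise this count, and gave 36 to 43. Of the 52 lower members 38 kept the call in all 11 fits without 1 mouse and under all 8 other alternatives that tested them. The count of higher members was 1 and was 0 to 1 without 1 mouse, 0 only without HFD control mouse 1. Rps7, which passed in none of these fits, ran from -0.15 to 0.038 without 1 mouse and was positive without HFD control mouse 1 or 4 or IMC-treated mouse 2 or 5. Rpl9, Rpl36al and Rplp2 passed under total CPM scaling and under scaling to genes that are not members. The cause of these differences was not tested. No paired analysis was possible because the mouse numbers only follow the order of the samples. Low read numbers limit Rps7, Rps27a, Rpl36 and Rpl11 most, at 14 to 53 reads per mouse, and unique mapping limits any comparison of levels between members.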
